A study of Macaca fascicularis with 10 samples.

Results

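The catecholamine neuron genes TH, SLC6A3, DBH and DRD2 were chosen by name, as the rows of these 4 symbols among the 7229 genes of the allelic count table. The samples were total RNA of the dorsal raphe nucleus from 10 female cynomolgus macaques (Macaca fascicularis), and the labels give no age, genotype or treatment. The labels name both parents of each animal, put all animals in 1 group and are followed here in their order for the numbers 1 to 10. The animals are called daughters. Each gene has 1 count for the maternal and 1 for the paternal allele in each daughter, so a comparison of alleles is made within an animal, and the daughters are the replicates. Some daughters share a labelled parent and are not fully independent, which the tests do not model. The paternal share of a gene is its paternal count as a percent of both counts, and 50% means equal alleles.

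Catecholamines are made from tyrosine. TH, tyrosine hydroxylase, catalyses the first and rate-limiting step, and DBH, dopamine beta-hydroxylase, turns dopamine into noradrenaline inside vesicles. SLC6A3 is the plasma membrane dopamine transporter, and DRD2 is a dopamine receptor coupled to inhibitory G proteins that also serves as the autoreceptor of dopamine neurons. The dorsal raphe is known mainly for serotonin neurons but also holds a group of dopamine neurons, which express TH and SLC6A3 and lack DBH, while DBH marks noradrenaline neurons such as those of the nearby locus coeruleus. In the mouse, Th and the next enzyme of the path, Ddc, have been described as partly biased to 1 parental allele in some tissues, so the balance of the alleles is of interest in these genes.

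The depth ranged from 30090 allelic reads in daughter 1 to 999471 in daughter 6, and the median gene with a value had 5 reads in daughter 1 and 21 to 56 elsewhere. The columns were nearly even over all genes, with 49.3% to 50.4% of reads paternal. Of 10 serotonin neuron markers 6 were in the table, and their coverage was uneven. TPH2, the brain enzyme of serotonin synthesis, had 41 to 5409 reads in 7 daughters, while the serotonin transporter SLC6A4 reached 10 reads in 2 daughters, with 19 and 404. Of 11 catecholamine markers 7 were in the table, and 5 of them had 10 or more reads in some daughter. The noradrenaline transporter SLC6A2 and the dopamine neuron factor NR4A2 were in the table but stayed under 10 reads in every daughter. The summed catecholamine marker level ranged from 0 to 954 CPM over daughters, which is the gene's allelic reads scaled by the library's allelic total, with a median of 85.0. The highest sum, in daughter 3, came mostly from 554 reads of SLC18A2, a transporter that serotonin neurons also use, and TH had no value there. None of the 5 oligodendrocyte, 5 astrocyte and 4 microglia markers that were looked up had a row, and other markers of these cells were not looked up. A gene has a value only where the daughter's table gives one, and its reads follow both its expression and how many positions tell her parents apart. In these bulk samples, fewer cells of a type and less RNA per cell cannot be told apart either.

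TH had a value in 6 of 10 daughters, and its share lay near 50% in most of them. Daughters 4, 8, 9 and 10 had only 22 to 28 reads, so their intervals are wide and leave room for a large imbalance. In daughter 6, with the most reads, the maternal column held 95 reads and the paternal 97, a paternal share of 50.5% (95% Wilson interval 43.5 to 57.5). Daughter 5 had 28 maternal and 34 paternal reads, 54.8% paternal (42.5 to 66.6), and daughter 4 had 12 and 14, 53.8% (35.5 to 71.2). The intervals of these 3 animals all include equal alleles, and the shares lie within a few points of each other.

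The lower side of the TH range came from daughters 8 and 10, and the upper end from daughter 9. Daughter 8 had 15 maternal and 13 paternal TH reads, 46.4% paternal (29.5 to 64.2), and daughter 10 had 14 and 11, 44.0% (26.7 to 62.9). Daughter 9 had 6 maternal and 16 paternal reads, 72.7% (51.8 to 86.8), the single TH interval that leaves out 50%. Intervals cover counting error only, since reads without molecular identifiers are not independent molecules.

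SLC6A3 shares lay on both sides of balance. In daughter 6 the dopamine transporter gene had 15 maternal and 39 paternal reads, a paternal share of 72.2% (59.1 to 82.4). Daughter 3 had 24 and 42, 63.6% (51.6 to 74.2). Daughter 4 had 6 and 8, 57.1% (32.6 to 78.6). Daughter 2 went the other way, with 24 maternal and 13 paternal reads, 35.1% paternal (21.8 to 51.2). The intervals of daughters 2 and 3 narrowly miss each other, at 51.2 and 51.6, and those of daughters 2 and 6 do not overlap. Those of daughters 3, 4 and 6 do overlap. How often the intervals of a pair of daughters miss each other over all genes was not counted.

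The other 4 daughters with an SLC6A3 value had too few reads to place the share. Daughters 5 and 7 had 3 maternal and 5 paternal reads each, daughter 9 had 2 and 0, and daughter 10 had 0 and 3. The intervals of these 4 all include 50%. Daughters 1 and 8 had no value.

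DBH and DRD2 could each be placed in 1 daughter only. DBH had a value in 2 daughters, with 7 maternal and 4 paternal reads in daughter 9, 36.4% paternal (15.2 to 64.6), and 2 and 2 in daughter 6. DRD2 had 17 maternal and 10 paternal reads in daughter 6, 37.0% (21.5 to 55.8). In daughters 4 and 7 DRD2 had 1 and 3 reads, in daughter 5 it had 1 and 2, and in daughter 8 it had 4 and 4. Every one of these intervals includes equal alleles, so no DBH or DRD2 imbalance was detectable at this depth, and the widths leave room for a large one.

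**Figure D1:**
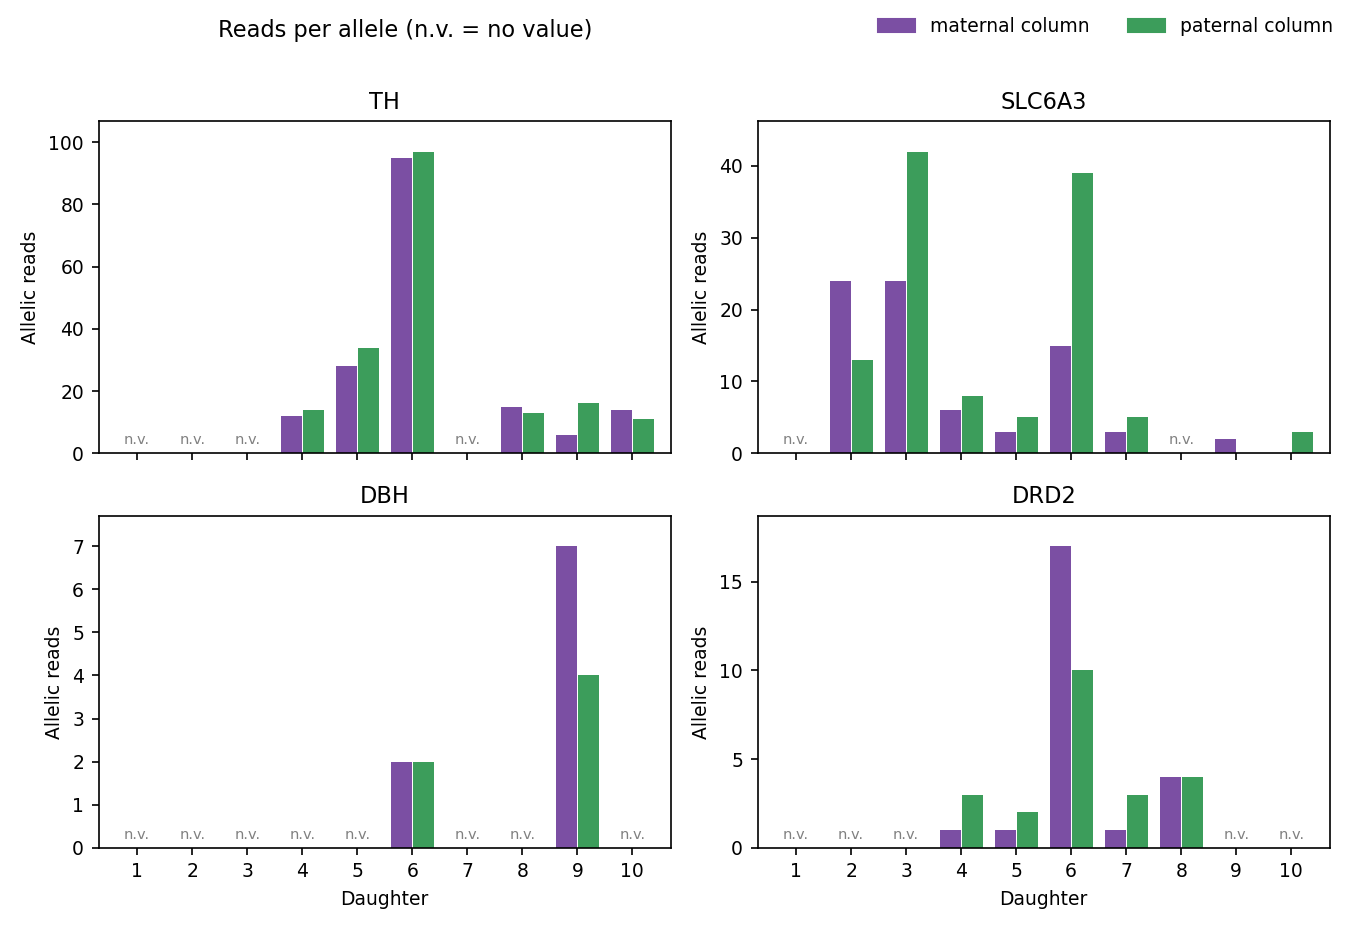
Allelic reads (y axis, scale set for each gene) of TH, SLC6A3, DBH and DRD2 in each daughter (x axis), with the maternal column in purple and the paternal column in green; n.v. marks a daughter with no value. TH and DRD2 have most reads in daughter 6, SLC6A3 in daughters 2, 3 and 6, and DBH has at most 11 reads in any daughter.

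**Figure D2:**
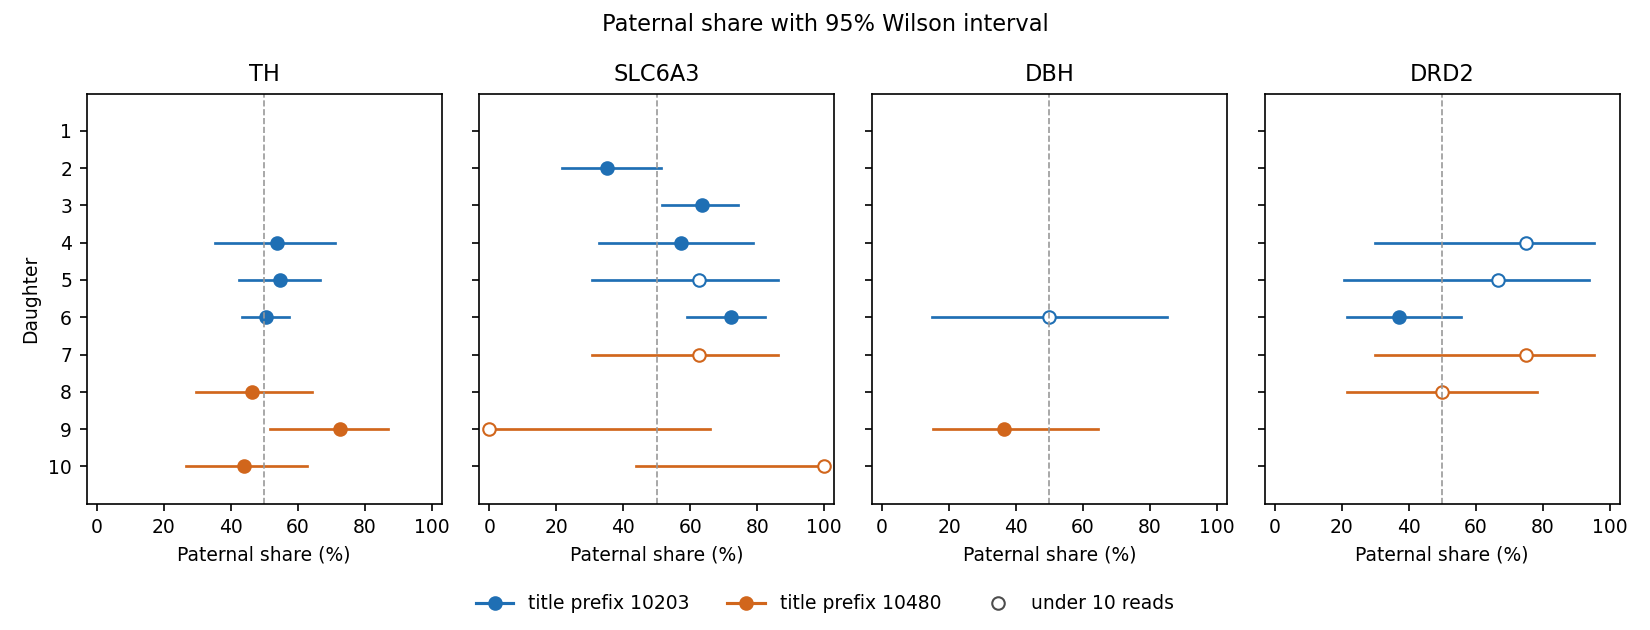
Paternal share (x axis, percent) of each gene in each daughter (y axis), with 95% Wilson intervals as lines; filled points have 10 or more reads, open points fewer, and colours give the title prefix. The filled TH points cluster near the dashed line at 50% apart from daughter 9 at 72.7%, and those of SLC6A3 run from 35.1% in daughter 2 to 72.2% in daughter 6.

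Counted over the 4 genes, 12 measurements of a gene in a daughter had 10 or more reads, 6 of TH, 4 of SLC6A3 and 1 each of DBH and DRD2. The interval left out 50% in 3 of the 12, against 20.1% of all 27887 measurements in the table and 16.3% of those with 10 to 99 reads. All 3 were on the paternal side, where 9.50% of all measurements lay, and 0 on the maternal side, where 10.6% did. They were TH in daughter 9 and SLC6A3 in daughters 3 and 6. The share lay between 40% and 60% in 6 of the 12, against 69.8% of all measurements and 61.9% of those with 10 to 99 reads. The counts are small, 2 of the 3 come from the same gene, and no difference from the rest of the table was tested.

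The question across daughters was whether 1 parental allele was favoured. TH had a mean paternal share of 53.7% ± 10.2 (SD, n = 6), with 4 of 6 daughters above 50%, so the mean lay within 1 SD of balance. In the edgeR quasi-likelihood fit over all genes, with the daughter as block, the TH difference was log2 0.18 ± 0.23 (SE, paternal over maternal, adjusted p = 1 over 2981 genes). No gene was called in that fit (0% of 2981). There 93 genes had an unadjusted p under 0.05, against 61 in DESeq2, which also called 0. An exact permutation test that flips the sign of each daughter's log2 ratio gave p = 0.531 for TH (two-sided, n = 6), where 0.0312 is the smallest p that 6 daughters allow. Leaving out daughter 9 brought the mean share to 49.9% ± 4.67 (SD, n = 5) and the fitted difference to log2 0.02 ± 0.21 (SE), so most of the distance of TH from balance came from 22 reads in 1 animal.

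SLC6A3 had a mean paternal share of 57.0% ± 15.9 (SD, n = 4), with 3 of 4 daughters above 50%. The exact permutation test gave p = 0.5 (two-sided, n = 4), and with 4 daughters it cannot go below 0.125. The gene had 10 or more reads in fewer than 5 daughters and was therefore not part of the 2981. In an edgeR fit that asked for 3 daughters, with 4331 genes of which 0.0231% were called, its difference was log2 0.51 ± 0.39 (SE, adjusted p = 1). Without daughter 2 the mean share was 64.3% ± 7.56 (SD, n = 3), and without daughter 6 it was 52.0% ± 14.9 (SD, n = 3). Pooling the reads of the 4 daughters gave 59.6% of 171 (52.2 to 66.7), an interval that counts reads and ignores the spread between animals. DBH and DRD2 could be fitted only with no filter on counts, at log2 -0.46 ± 0.69 and 0.10 ± 0.44 (SE, edgeR adjusted p = 1 for both). Of the 4 genes, TH alone passed the filter of the main fit.

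Given the reads, the spread between daughters was near counting error for TH and above it for SLC6A3. The dispersion of paternal reads around a gene's pooled share is near 1 when daughters differ by counting error alone. It was 1.04 for TH over 355 reads, where 635 genes with 10 or more reads in 6 daughters had a median of 1.78, and 30.1% of them lay below TH. It was 4.42 for SLC6A3 over 171 reads, where 665 genes measured in 4 daughters had a median of 1.48, and 82.4% of them lay below it. Read numbers of the compared genes were similar, with medians of 366 and 159. No test was made of this difference between the genes.

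In daughters 6, 9 and 10 the genes did not all lie on the same side, and in daughters 4, 5 and 7 they did. Daughter 6 was the only animal with a value for all 4, with 50.5% paternal for TH, 72.2% for SLC6A3, 37.0% for DRD2 and 2 reads on each side for DBH. The SLC6A3 and DRD2 intervals of this daughter do not overlap, and the SLC6A3 interval lies above that of TH, which ends at 57.5%. How often the intervals of a pair of genes miss each other within a daughter was not counted. In daughters 4 and 5 the shares of TH, SLC6A3 and DRD2 were all above 50%, with intervals that all include it. In daughter 9 TH was at 72.7% and DBH at 36.4%, with intervals that overlap. TH and DRD2 lie on the same chromosome of the RefSeq gene table of T2T-MFA8v1.1, with 1086 protein-coding genes between them, and SLC6A3 and DBH lie on others.

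Daughters that share a labelled parent gave few pairs with values. Daughters 4 and 5 share a father, and both had TH (53.8% and 54.8%), SLC6A3 (57.1% of 14 and 62.5% of 8 reads) and DRD2 (4 and 3 reads). Their shares were close in TH and SLC6A3, well inside the counting error. Daughters 6 and 10 share a mother, and TH was at 50.5% and 44.0% in them, and SLC6A3 at 72.2% of 54 and 100% of 3 reads. Daughters 1, 7 and 8 share a father, and among them TH had a value in daughter 8 only and SLC6A3 in daughter 7 only. For these animals no member could be compared except DRD2, with 4 reads in daughter 7 and 8 in daughter 8.

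The titles carry the prefix 10203 in daughters 1 to 6 and 10480 in daughters 7 to 10, which may mark a processing batch, although the labels do not say so. The mean TH share was 53.1% ± 2.26 in the first and 54.4% ± 15.9 in the second (SD, n = 3 each). The parental difference of TH differed between prefixes by log2 0.06 ± 0.52 (SE, edgeR interaction, adjusted p = 1), in a test that called 0.0335% of 2981 genes. All 4 daughters with 10 or more SLC6A3 reads carry 10203, so no comparison between prefixes could be made for it.

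The level of TH was lowest in daughter 4 at 30.9 CPM. Daughter 10 had 50.1 CPM, daughter 9 had 52.7, daughter 5 had 67.6, daughter 8 had 80.4 and daughter 6 had 192. Daughter 6 stood apart from the other 5, which ran from 30.9 to 80.4 CPM. The mean was 79.0 ± 57.9 (SD, n = 6), or 56.3 ± 18.7 (SD, n = 5) without daughter 6. SLC6A3 was highest at 102 CPM, in daughter 3. Daughter 2 had 67.6 CPM, daughter 6 had 54.0 and daughter 4 had 16.7, so its highest daughter was not that of TH. DRD2 was at 27.0 CPM in daughter 6 and at 23.0 or less elsewhere, and DBH at 26.3 CPM in daughter 9 and 4.002 in daughter 6. The part that informative positions have in these levels was not tested.

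Both TH alleles were high in daughter 6, with 190 CPM of maternal and 194 CPM of paternal reads. Over the 6 daughters Pearson's r between the alleles was 0.933 (exact permutation p = 0.0306, Benjamini-Hochberg adjusted p = 0.0512 over 2319 genes) and Spearman's rho 0.429 (exact permutation p = 0.419, adjusted 0.479). TH did not pass, in a test that called 59.3% of the 2319 genes with r above 0 and gave a median r of 0.848. Without daughters 6 and 9, the farthest from the median maternal level, r was 0.864 (n = 4), and without daughter 6 alone it was 0.413 (n = 5). The size of r thus depended on which of daughters 6 and 9 were kept, and each prefix holds too few daughters for a value of its own.

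**Figure D3:**
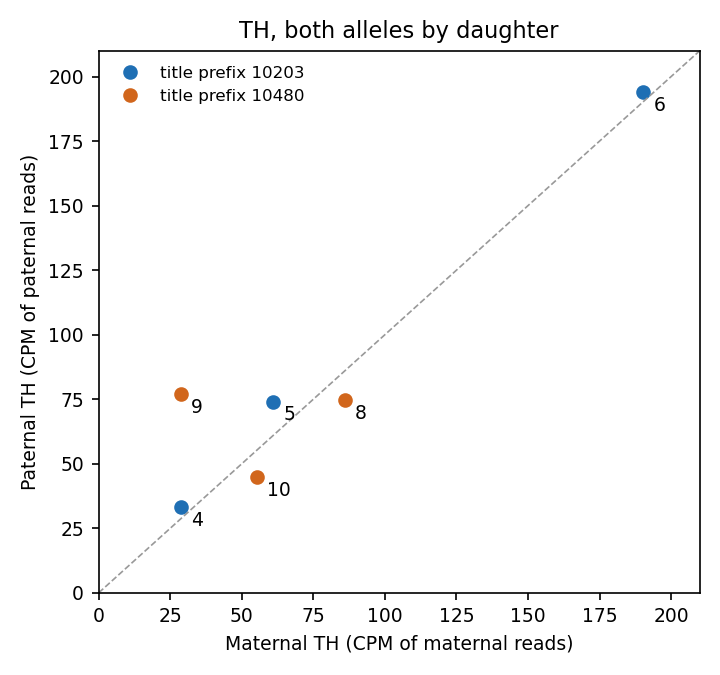
Maternal (x axis) against paternal (y axis) TH level, each in CPM of that allele's reads, for the 6 daughters with a value, labelled by number and coloured by title prefix; the dashed line marks equal alleles. Daughter 6 lies far from the others at 190 and 194 CPM, and daughter 9 lies above the line at 28.6 and 76.8 CPM.

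By likeness of level over daughters, genes near to TH were GCDH, a mitochondrial enzyme of lysine breakdown, with Pearson's r of log2 CPM of 0.953, and CTNNBL1, a splicing-related protein, with 0.913, over 6 daughters each. Among the 822 genes compared, the median r was 0.05 and 5 were above 0.9. With 6 points, of which daughter 6 is far from the rest, and with levels that share library depth and informative positions, these values are a description. SLC6A3, DBH and DRD2 had 10 or more reads in fewer than 6 daughters and were not compared.

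Other genes of the pathway were read from lists of catecholamine genes. Of 10 synthesis and cofactor genes 4 were in the table, 2 were tested and 0 were called by edgeR, with a median log2 difference of 0.22 against -0.01 over all 2981 genes. DDC, which makes dopamine from L-DOPA, had 54.6% ± 4.30 (SD, n = 5), with the highest daughter at 61.5% of 117 reads and the lowest at 50%. Its interval left out 50% in 2 daughters, daughter 4 (52.5 to 69.9) and daughter 6 (51.3 to 58.2), both on the paternal side. Over all measurements with 10 or more reads the interval left out 50% in 20.1%. The fitted DDC difference was log2 0.44 ± 0.21 (SE, edgeR) and was not called. PTS, an enzyme of the pterin cofactor that TH needs, had 50.04% ± 7.53 (SD, n = 5). PCBD1, which recycles that cofactor, was on the paternal side in daughter 4 (66.7% of 147 reads) and daughter 5 (68.0% of 256), and near balance in daughter 6 (53.8% of 338). The PCBD1 intervals of daughters 4 and 5, which share a father, lie at 58.7 to 73.8 and 62.0 to 73.4, so both leave out 50% and overlap each other. That is 2 of 3 daughters, against the same 20.1% of all measurements. How often daughters 4 and 5 are alike over all genes was not counted. GCH1, the first enzyme of cofactor synthesis, had 1 paternal of 13 reads in daughter 6 (7.69%, 1.37 to 33.3), 5 of 16 in daughter 3 and 10 of 14 in daughter 8.

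Of 6 vesicle and membrane transport genes reported here 3 were in the table, and none had enough daughters to be tested. The vesicle monoamine transporter SLC18A2, shared by dopamine, noradrenaline and serotonin neurons, had 54.0% ± 2.63 (SD, n = 3). Its interval left out 50% in 1 of 3 daughters, daughter 3, at 56.3% of 554 reads (52.2 to 60.4). The share over all measurements with 10 or more reads was 20.1%.

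Of 5 breakdown genes reported here 2 were in the table, both were tested and 0 were called, with a median log2 difference of -0.13. Their shares were nevertheless unequal in single animals, on both sides. The interval of ALDH2, a mitochondrial aldehyde dehydrogenase, left out 50% in 8 of 10 daughters, 3 on the paternal and 5 on the maternal side, with a lowest share of 14.9%, from 47 reads of daughter 1, and a highest of 65.6%, from 1035 reads of daughter 3. Over all measurements with 10 or more reads the interval left out 50% in 20.1%. ALDH2 was at 44.9% and 45.4% in daughters 4 and 5, with the same father. Other animals that share a parent were less alike, with 14.9%, 64.3% and 42.7% in daughters 1, 7 and 8 (same father) and 59.7% and 43.6% in daughters 6 and 10 (same mother). MAOA, the monoamine oxidase gene on the X chromosome, left out 50% in 5 of 5 daughters, also against 20.1% of all measurements. It had 67 to 178 reads, and those measurements were not limited to such depth or to X-linked genes. Daughter 3 had 27.3%, daughter 10 had 33.1%, daughter 6 had 39.3%, daughter 4 had 64.5% and daughter 7 had 70.1%. The median shares of X-linked genes were 27.7%, 29.7%, 44.9%, 73.6% and 57.1% in the same order, on the same side of 50% each time.

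Of 13 other catecholamine receptor genes 1 was in the table, ADRA1D, and it stayed under 10 reads. Among 13 signalling partners of the receptors 8 were in the table, 3 were tested and 0 were called, with a median log2 difference of -0.06. GNAL, the stimulatory G protein subunit of striatal dopamine signalling, was at 19.6% of 112 reads in daughter 7 (13.3 to 28.0), with the other 4 daughters between 36.8% and 64.7% and all their intervals including 50%. GNAS, the ubiquitous stimulatory subunit, had 48.8% ± 9.04 (SD, n = 5). Its intervals lay on the maternal side in 3 daughters and on the paternal side in 2, with 577 to 12233 reads each. Over all measurements with 10 or more reads, most of them shallower, the interval left out 50% in 20.1%. GNAO1, an inhibitory subunit, was at 35.9% in daughter 4 (27.3 to 45.5) and at 58.4% in daughter 5 (47.3 to 68.8). These daughters share a father, and their GNAO1 intervals do not overlap. GNAI1, also an inhibitory subunit, was at 56.1% of 114 reads in daughter 5. The arrestin gene ARRB2 had 37.8% ± 6.29 (SD, n = 3). RGS9, which speeds the turn-off of inhibitory G proteins, had 51.8% ± 9.46 (SD, n = 8). PPP1R1B, the dopamine-regulated phosphatase inhibitor DARPP-32, was at 71.0% of 93 reads in daughter 5 and at 46.2% to 56.5% in daughters 2, 4 and 8. Its intervals in daughters 4 (33.3 to 59.5) and 5 (61.1 to 79.2), with the same father, do not overlap either. RGS9 and GNAS, the other genes of this list with 10 or more reads in both daughters, went the other way. The RGS9 intervals overlap, at 37.5 to 62.5 in daughter 4 and 42.2 to 59.4 in daughter 5. Those of GNAS also overlap, at 42.1 to 45.1 and 42.6 to 45.9. The share of all genes whose intervals miss each other in daughters 4 and 5 was not counted.

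Of 25 identity genes 6 were in the table, 2 were tested and 0 were called, with a median log2 difference of 0.36 from these 2. The GDNF receptor pair RET and GFRA1, through which dopamine neurons receive trophic signals, reached 10 reads in several daughters, and the transcription factor GATA3 did so in 1. GATA3, DDC and GCH1 were also among the serotonin neuron markers, and bulk reads do not tell which cells they came from. GATA3 was at 21.1% of 19 reads in daughter 3 (8.51 to 43.3), on the maternal side. RET had 53.6% ± 8.40 (SD, n = 8), and GFRA1 had 59.4% ± 4.31 (SD, n = 5), with 5 of 5 daughters between 55% and 65%. GFRA1 was at log2 0.49 ± 0.24 (SE, edgeR adjusted p = 1), and its interval left out 50% in 1 of 5 daughters, daughter 6. In the identity list the interval did so in 2 of 14 measurements, against 20.1% of all measurements with 10 or more reads.

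**Figure D4:**
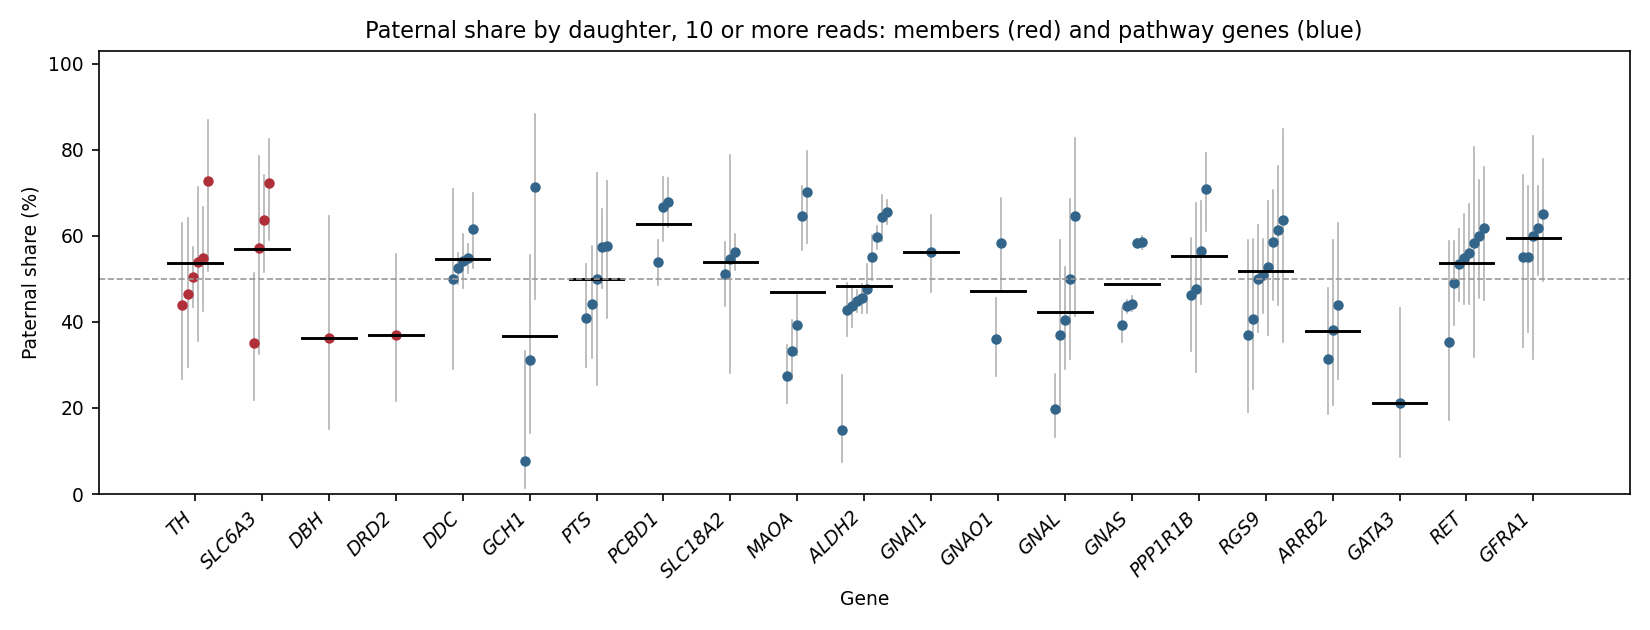
Paternal share (y axis, percent) in each daughter with 10 or more reads, for TH, SLC6A3, DBH and DRD2 (red) and listed pathway genes (blue), ordered by list along the x axis; grey lines are 95% Wilson intervals and black bars are means over daughters. ALDH2 in daughter 1 at 14.9% lies far from the other ALDH2 points, and TH scatters around 50%.

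TH lies beside an imprinted gene cluster in human and mouse, in which several genes are expressed from 1 parental copy. In the RefSeq gene order of T2T-MFA8v1.1, INS and ASCL2 are the protein-coding neighbours of TH, and neither has a row among the counts. Of 19 listed symbols of that region, where CARS and CARS1 stand for the same gene, 10 were in the table, 4 were tested and 0 were called, with a median log2 difference of -0.03. CD81, a tetraspanin with 3 protein-coding genes between it and TH, had 52.5% ± 4.26 (SD, n = 8). In the 5 daughters with both genes, CD81 was at 55.5% in daughter 4 (TH 53.8%), 50.7% in daughter 5 (TH 54.8%), 48.8% in daughter 6 (TH 50.5%), 61.1% in daughter 9 (TH 72.7%) and 51.3% in daughter 10 (TH 44.0%). Daughter 9 was thus the highest of these 5 for both, and the CD81 share rests on 1288 reads there (58.4 to 63.7). The CD81 interval also left out 50% in daughter 4 (53.7 to 57.3). That is 2 of 8 daughters, against 20.1% of all measurements with 10 or more reads. A link between the shares of TH and CD81 was not tested. OSBPL5, the other listed gene of the region with 10 or more reads in daughter 9, was at 45.2% of 31 (29.2 to 62.2).

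Farther out, CARS, the cysteinyl-tRNA synthetase gene, whose symbol in the counts has no match in the RefSeq table, was at 51.5% ± 5.36 (SD, n = 7) and OSBPL5 at 47.3% ± 9.55 (SD, n = 9). The OSBPL5 interval left out 50% on opposite sides in daughter 7 (65.1%, 50.2 to 77.6) and daughter 8 (35.7%, 24.5 to 48.8), which share a father. That is 2 of 9 daughters, against 20.1% of all measurements with 10 or more reads. NAP1L4, a histone chaperone, was at 50% of 360 reads in daughter 3 and at 44.4% of 615 in daughter 4. On the other side of TH, MRPL23, a mitochondrial ribosomal protein gene, was mostly maternal in daughter 2 (14.5% paternal of 76 reads), daughter 3 (12.2% of 74) and daughter 5 (7.27% of 55). Daughter 6 had 44.2% of 310 reads (38.8 to 49.8) and daughter 10 had 57.6% of 191 (50.5 to 64.4). The MRPL23 interval thus left out 50% in 5 of 5 daughters, 4 on the maternal and 1 on the paternal side. Over all measurements with 10 or more reads it did so in 20.1%. The fitted MRPL23 difference was log2 -1.34 ± 0.54 (SE, edgeR) and was not called. Daughters 5, 6 and 10 had both TH and MRPL23. TH lay near balance in daughter 5 at 54.8% and MRPL23 did not.

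**Figure D5:**
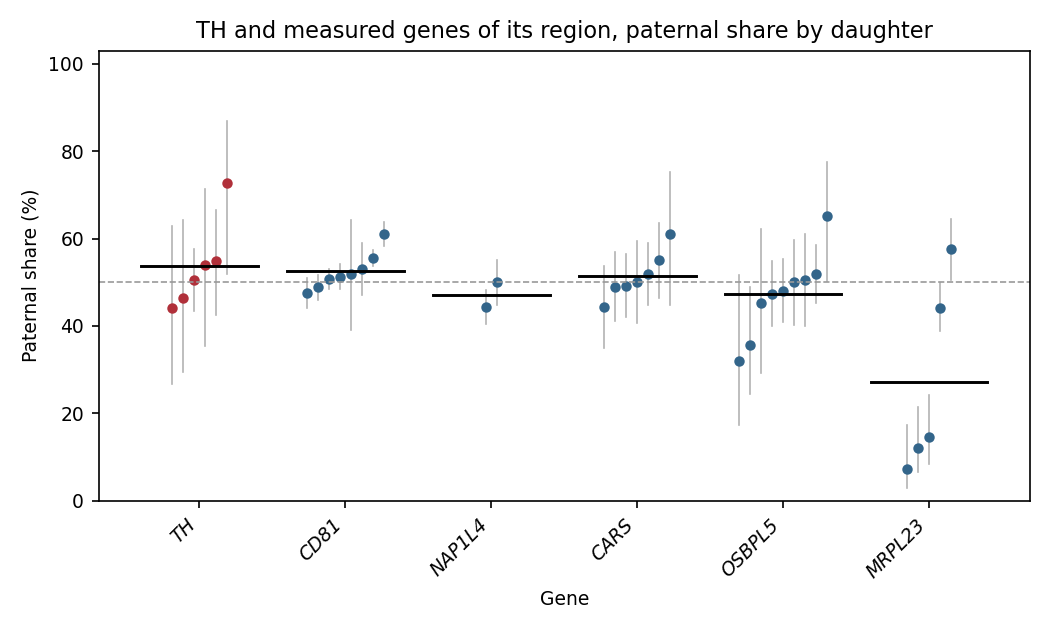
Paternal share (y axis, percent) of TH (red) and of 5 listed genes of its region (blue, x axis) in each daughter with 10 or more reads, with 95% Wilson intervals in grey and means over daughters as black bars. CD81, CARS and OSBPL5 scatter on both sides of 50%, while MRPL23 runs from 7.27% to 57.6%.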

How the data were processed

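For each daughter the authors deposited raw allelic counts of each gene in 2 columns, maternal and paternal, on the build macFas5 per the file headers. Libraries were stranded total RNA, and the aligner was Novoalign per the submitters' processing notes. Its version, the phasing and the read filters are not given in the sources used here. Columns were matched to samples by title.

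Genes entered at 10 allelic reads in at least 5 daughters. They were fitted with edgeR 4.0.16 (R 4.3.3, glmQLFit robust, glmQLFTest) with daughter as block and the summed alleles as library size. Missing values entered as 0 reads in both columns. The threshold was a Benjamini-Hochberg adjusted p of 0.05. DESeq2 1.42.0 was the other tool. The script was tested on simulated data. Shares carry 95% Wilson intervals, and means use daughters with 10 or more reads. Log2 ratios of single daughters add 0.5 to each count. SciPy 1.17.1 gave the intervals. Daughters are separate animals by their labels, and those that share a parent were treated as independent.

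The 4 genes and the lists were chosen with earlier results of these data known. Named genes were the 4 members, list members that reached 10 reads in any daughter, and the 3 genes most like each member measured in 6 daughters or more. A few further genes are not reported here and were left out of the lists. ADRA1D, SLC6A2, NR4A2, INS, ASCL2 and TPH2 were named outside that rule, after their values were seen. The lists were catecholamine synthesis, transport, breakdown, receptors, signalling partners, neuron identity and the region of TH.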

Additional observations from a re-analysis of the deposited data

Results flagged for a closer look

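Over 18 groups of 4 to 10 daughters, 2 held a daughter far from the rest by Dixon's test, and chance gives about 1 in 20. TH had 192 CPM of allelic reads in daughter 6, against 30.9 to 80.4 in the other 5 daughters. ALDH2 had 14.9% in daughter 1, the shallowest library, with 47 reads, against 42.7% to 65.6% in the other 9.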

How the results depend on the processing

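The TH difference stayed on the paternal side and short of the threshold under TMM, no filter, a filter of 3 daughters, DESeq2, no replicate block (log2 0.13 ± 1.02, SE) and each title prefix, a choice made after seeing the data (0.16 and 0.23). Leaving out each daughter gave log2 0.02 to 0.27, and mean TH shares of 49.9% to 55.7%. The mean SLC6A3 share ranged from 52.0% to 64.3% in the same way. DRD2 moved from 37.0% in 1 daughter to 60.7% ± 16.7 (SD, n = 5) with 1 or more reads. The count of called genes was 0 in the fit reported, 2 without a filter (FAM199X and ZIM2), 1 with 3 daughters (FAM199X), and 0 to 1 when leaving out each daughter, the 1 being TSPAN7 without daughter 4. None was a catecholamine gene. No replicate block gave 0 called genes. The maternal and paternal columns of a daughter are 1 library, which is where the pairing comes from. Few reads limit every value, most of all for DBH and DRD2, where intervals span over 30 points. SLC6A3, DBH and DRD2 had 10 reads in too few daughters for the main filter, so only looser filters gave a fitted value, and the correlation of alleles was not computed for them.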
